A study of Macaca mulatta with 10 samples.

Results

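The Anterior Thalamus was compared with the other 4 nuclei sampled from the dorsal thalamus of the rhesus monkey (Macaca mulatta). Its members are the arrays titled Anterior Thalamus, 2 of the 10 arrays in the study, and each was set against the mean of the 4 other arrays that carry the same replicate number. Tissue was taken as small punches from untreated adult monkeys, and total RNA was hybridised to an Affymetrix array with probes for human transcripts. Besides Anterior Thalamus the groups were Pulvinar, Ventral Thalamus, Centre Median and Medial Thalamus, each untreated adult tissue with 2 arrays, numbered replicate 1 and replicate 2. The labels do not state the animals, so p-values measure only the spread between these arrays. The number of animals behind the arrays is not known. The arrays numbered 1 are called set 1 here, and those numbered 2 are called set 2.

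The anterior nuclei receive input from the mammillary bodies and the hippocampal formation and project to cingulate and retrosplenial cortex, and they are known for their part in memory and spatial orientation. The Ventral Thalamus holds motor and somatosensory relay nuclei, the Centre Median projects to the striatum, and the Pulvinar and Medial Thalamus exchange signals with association and prefrontal cortex. In primates, relay neurons of these nuclei are glutamatergic, and their nuclei differ in calcium-binding proteins, neurofilaments and neuropeptides.

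Both Anterior Thalamus arrays carried the defining transcripts of thalamic relay neurons. TCF7L2, a transcription factor of thalamic neurons, had levels of 12.30 and 12.93 as log2(intensity + 1) in Anterior Thalamus replicates 1 and 2. The range over the other arrays was 11.78 to 12.40 in set 1 and 12.68 to 13.00 in set 2. SLC17A6, the vesicular glutamate transporter of these neurons, had levels of 10.71 and 11.05 in Anterior Thalamus. In both cases Anterior Thalamus lay inside the range of the other nuclei of its set, with differences from their mean of 0.15 and 0.14 for TCF7L2 and of 0.15 and 0.11 for SLC17A6.

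The sets differed in ways that bear on every comparison. The lowest intensity was 11.97 to 12.30 in set 1 and 9.49 to 9.55 in set 2, and the Anterior Thalamus arrays correlated with each other at 0.952 over all genes, less than with arrays of their own set (0.984 to 0.991). The 3′ minus 5′ actin signal, a measure of RNA integrity, was 0.37 and 1.36 in Anterior Thalamus replicates 1 and 2, inside the range of the other nuclei in both sets. In set 1 it was 1.22 in Ventral Thalamus, against 0.46 in Centre Median, 0.34 in Pulvinar and -0.09 in Medial Thalamus. In set 2 it ran from 1.15 in Centre Median to 1.64 in Ventral Thalamus. The part of RNA integrity in the differences from single nuclei was not tested. Within set 1 the arrays also stood apart in XIST, the RNA of the inactive X chromosome, which was 7.22 in Anterior Thalamus, 6.70 in Medial Thalamus and 6.86 in Ventral Thalamus against 8.96 in Centre Median and 9.60 in Pulvinar. RPS4Y1, a ribosomal protein gene of the Y chromosome, ran the other way, at 8.20, 8.16 and 8.94 against 7.65 and 7.22. In set 2 all 5 arrays had XIST between 9.86 and 10.34. Anterior Thalamus replicates 1 and 2 thus differed in XIST (7.22 and 10.06) and in RPS4Y1 (8.20 and 7.12). A replicate number can therefore not be taken to stand for 1 animal. The part of sex or animal in the differences was not tested. For some genes, fitted differences are also given with set 1 split into 2 blocks by XIST and RPS4Y1. This split places Anterior Thalamus replicate 1 with Medial and Ventral Thalamus.

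No gene passed the test of Anterior Thalamus against the mean of the other 4 nuclei. In limma, with a block for replicate number, 0 of 11963 genes were called higher and 0 lower at an adjusted p below 0.05 (0% called in each direction). At an unadjusted p below 0.05 there were 688 genes (5.75%), of which 341 were higher and 347 lower. Without the block, limma also called 0 genes, with 36 at an unadjusted p below 0.05. The smallest adjusted p with the block was 0.301, for TPBG. With set 1 split, 0 genes were called and the smallest adjusted p was 0.501. The differences described below are therefore measured values, not calls.

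Few genes repeated their difference from set 1 to set 2 in Anterior Thalamus. A gene was counted as consistent where both differences had the same sign, both were at least 0.5 on the log2 scale, which is a 1.41-fold difference, and the larger was at most 2 times the smaller. This held for 10 genes (0.0836% of 11963), of which 2 were higher in Anterior Thalamus (0.0167%) and 8 lower (0.0669%). For another 6 genes both differences reached 0.5 with opposite signs. At a limit of 0.3, 79 genes were consistent (0.660%), 26 higher and 53 lower, and 50 were opposed. Quantile normalisation of the arrays gave 4 higher and 5 lower consistent genes, 7 of them among the 10, and median centring gave 1 and 8. With Anterior Thalamus replicate 1 set only against Medial and Ventral Thalamus, an alternative chosen after seeing the data, 7 genes were consistent and 4 of them were among the 10 (BACH2, CBLN1, NEFM and SERPINI1). Over all genes the difference had the same sign in both sets for 49.9%, with 25.4% above and 24.5% below the other nuclei in both. The differences of set 1 and set 2 correlated at r = 0.05 (Spearman 0.02), over 11963 genes that share the same 10 arrays, so the value is a description.

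**Figure D1:**
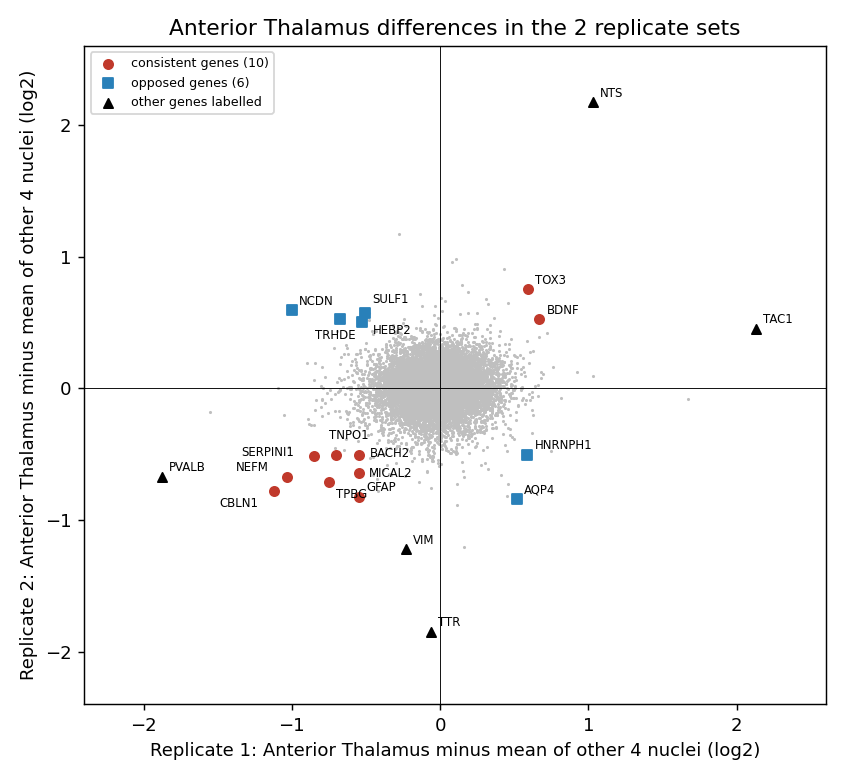
Difference of Anterior Thalamus from the mean of the other 4 nuclei in replicate 1 (x axis, log2) and replicate 2 (y axis, log2), 1 grey point per gene, with the 10 consistent genes as circles, the 6 opposed genes as squares and 5 other named genes as triangles. The grey cloud has no slope (r = 0.05), and NTS, TAC1 and PVALB lie outside it with the same sign in both sets but unequal size.

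The same counts were made for each nucleus against the rest, and the 5 comparisons share all 10 arrays. Ventral Thalamus had 74 consistent and 0 opposed genes, Medial Thalamus 44 and 3, Centre Median 37 and 1, and Pulvinar 11 and 3. At this limit Anterior Thalamus and Pulvinar were the nuclei with the fewest consistent genes, and Anterior Thalamus had the most opposed genes. At 0.3 the consistent genes numbered 79 in Anterior Thalamus, 60 in Pulvinar, 159 in Centre Median, 224 in Medial Thalamus and 375 in Ventral Thalamus. The opposed genes at 0.3 were most numerous in Medial Thalamus (77), followed by Pulvinar (54) and Anterior Thalamus (50). The set 1 and set 2 differences correlated at 0.40 in Ventral Thalamus, 0.25 in Centre Median, 0.16 in Medial Thalamus and -0.02 in Pulvinar. The median gene differed from the other nuclei by 0.11 in size in Anterior Thalamus set 1 and 0.10 in set 2, while the median gap between its set 1 and set 2 values was 0.16. Of the 61 genes at least 0.5 higher in Anterior Thalamus replicate 1, 37 (60.7%) were above 0 in replicate 2, with a median there of 0.02. Of the 167 genes at least 0.5 lower in replicate 1, 95 (56.9%) were below 0 in replicate 2, with a median of -0.02. The differences between nuclei in these counts were not tested.

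**Figure D2:**
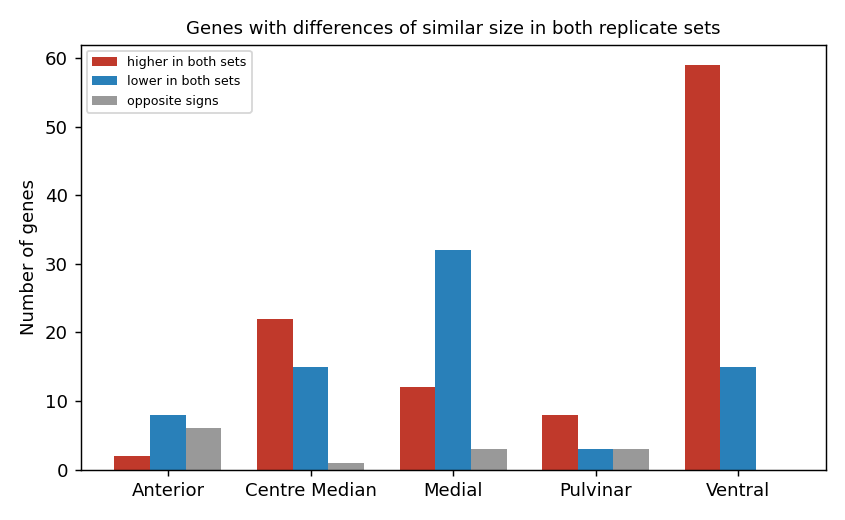
Number of genes (y axis) that were consistently higher, consistently lower or of opposite sign in both replicate sets, for each nucleus against the mean of the other 4 (x axis). Anterior Thalamus shows 2 higher, 8 lower and 6 opposed genes, against 74 consistent and 0 opposed in Ventral Thalamus.

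The consistently higher genes were TOX3 and BDNF. TOX3, a transcription cofactor with a high-mobility-group box, had levels of 7.38 and 8.47 in Anterior Thalamus replicates 1 and 2, 6.14 and 7.92 in Centre Median, 7.38 and 7.91 in Medial Thalamus, 6.74 and 7.05 in Ventral Thalamus, and 6.91 and 8.01 in Pulvinar. Anterior Thalamus was highest in both sets, with Medial Thalamus level with it to 2 decimals in set 1. The differences were 0.59 and 0.75, and the fitted difference was 0.67 (SE 0.202), with an adjusted p of 0.807 in limma. The other probe sets assigned to TOX3 gave 0.55 and 0.42 for one and 0.64 and 0.42 for the other. TOX3 was thus higher in Anterior Thalamus by all of its probe sets in both replicates. With set 1 split by XIST and RPS4Y1 the fitted difference was 0.47. Against Medial and Ventral Thalamus alone the set 1 difference was 0.33, and TOX3 then fell outside the rule.

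BDNF, a neurotrophin that acts through TrkB, had levels of 7.03 and 6.06 in Anterior Thalamus, 5.92 and 5.87 in Centre Median, 7.29 and 5.86 in Medial Thalamus, 6.35 and 5.10 in Ventral Thalamus, and 5.89 and 5.30 in Pulvinar. Medial Thalamus replicate 1 lay above Anterior Thalamus, so the groups overlapped. The differences were 0.67 and 0.52, the fitted difference was 0.60 (SE 0.194, limma adjusted p 0.807), and it was 0.37 with set 1 split.

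The lowest adjusted p belonged to TPBG, a membrane glycoprotein with leucine-rich repeats. Its levels were 5.83 and 5.84 in Anterior Thalamus, 7.76 and 7.55 in Centre Median, 6.22 and 6.51 in Medial Thalamus, 6.23 and 5.96 in Ventral Thalamus, and 6.09 and 6.18 in Pulvinar. Anterior Thalamus was the lowest nucleus in both sets, and Centre Median stood far above the rest. The differences were -0.75 and -0.71, and the fitted difference was -0.73 (SE 0.113), or 1.66-fold lower. Against the mean of the 3 nuclei without Centre Median the differences were -0.35 and -0.38. With Medial Thalamus replicate 1 left out, the fitted TPBG difference was -0.78, and Medial Thalamus then rested on 1 array.

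The differences of CBLN1 and SERPINI1 also depended on Centre Median, and that of CBLN1 in set 1 on Medial Thalamus as well. CBLN1, a secreted organiser of synapses, had levels of 6.97 and 6.22 in Anterior Thalamus, 8.94 and 8.67 in Centre Median, 8.86 and 7.01 in Medial Thalamus, 7.37 and 6.19 in Ventral Thalamus, and 7.18 and 6.13 in Pulvinar. Anterior Thalamus was lowest in set 1 and just above Pulvinar and Ventral Thalamus in set 2. Its differences of -1.12 and -0.78 were -0.84 and -0.22 without Centre Median, and -0.86 and -0.78 without Medial Thalamus. SERPINI1, neuroserpin, an inhibitor of tissue plasminogen activator, had levels of 8.96 and 9.19 in Anterior Thalamus, 11.14 and 10.63 in Centre Median, 9.45 and 9.03 in Medial Thalamus, 9.64 and 9.55 in Ventral Thalamus, and 9.03 and 9.62 in Pulvinar. The differences were -0.85 and -0.52, and -0.41 and -0.21 without Centre Median.

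NEFM and GFAP are structural proteins of different cells. NEFM, the medium neurofilament subunit of large axons, had levels of 9.08 and 9.81 in Anterior Thalamus, 10.08 and 10.06 in Centre Median, 9.02 and 9.85 in Medial Thalamus, 10.98 and 11.96 in Ventral Thalamus, and 10.38 and 10.07 in Pulvinar. Anterior and Medial Thalamus were the low nuclei and Ventral Thalamus the high one. The differences of -1.03 and -0.67 were -0.74 and -0.18 without Ventral Thalamus. GFAP, which forms the glial filaments of astrocytes, had levels of 10.17 and 10.56 in Anterior Thalamus, 10.35 and 11.44 in Centre Median, 11.19 and 12.44 in Medial Thalamus, 10.08 and 9.99 in Ventral Thalamus, and 11.25 and 11.70 in Pulvinar. Ventral Thalamus was lower still in both sets. The differences for GFAP were -0.55 and -0.82, while its other, dimmer probe set gave -0.28 and 0.30. In these bulk punches, fewer cells of a type and less RNA per cell cannot be told apart.

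BACH2, a transcription repressor, had levels of 5.90 and 6.45 in Anterior Thalamus, 6.57 and 6.99 in Centre Median, 6.79 and 6.64 in Medial Thalamus, 6.28 and 6.79 in Ventral Thalamus, and 6.14 and 7.39 in Pulvinar. Anterior Thalamus was lowest in both sets, with differences of -0.55 and -0.51. MICAL2, an enzyme that oxidises nuclear actin, had levels of 7.55 and 8.001 in Anterior Thalamus and 7.23 to 9.10 on the other arrays. Its differences were -0.55 and -0.64, but its other probe sets, both dimmer, gave -0.08 and 0.08 for one and -0.11 and 0.04 for the other. TNPO1, an import receptor of the nucleus, had levels of 8.03 and 9.28 in Anterior Thalamus and 8.02 to 10.08 elsewhere. Its differences were -0.70 and -0.51, and the other 4 probe sets of TNPO1 were below 0 in both sets, with mean differences of -0.34 to -0.08. TOX3, TPBG and BACH2 were the only consistent genes for which Anterior Thalamus was the outermost of the 5 nuclei in both sets (highest in both sets for 4.61% of all genes, lowest in both for 3.12%). TNPO1 and BACH2 lay just inside the size limit, while CSRP2 (0.46 and 0.65) and ETV1 (-0.65 and -0.47) lay just outside it. Without Centre Median in the comparison mean, only BDNF, GFAP and NEFM of the 10 genes still met the rule. TOX3 then differed by 0.38 and 0.82, BACH2 by -0.51 and -0.49, MICAL2 by -0.22 and -0.61 and TNPO1 by -0.44 and -0.51. With set 1 split, the fitted differences of the 8 lower genes ran from -1.10 for CBLN1 to -0.43 for MICAL2. BDNF, SERPINI1, MICAL2, TNPO1, CSRP2 and ETV1 are named after their values were seen.

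**Figure D3:**
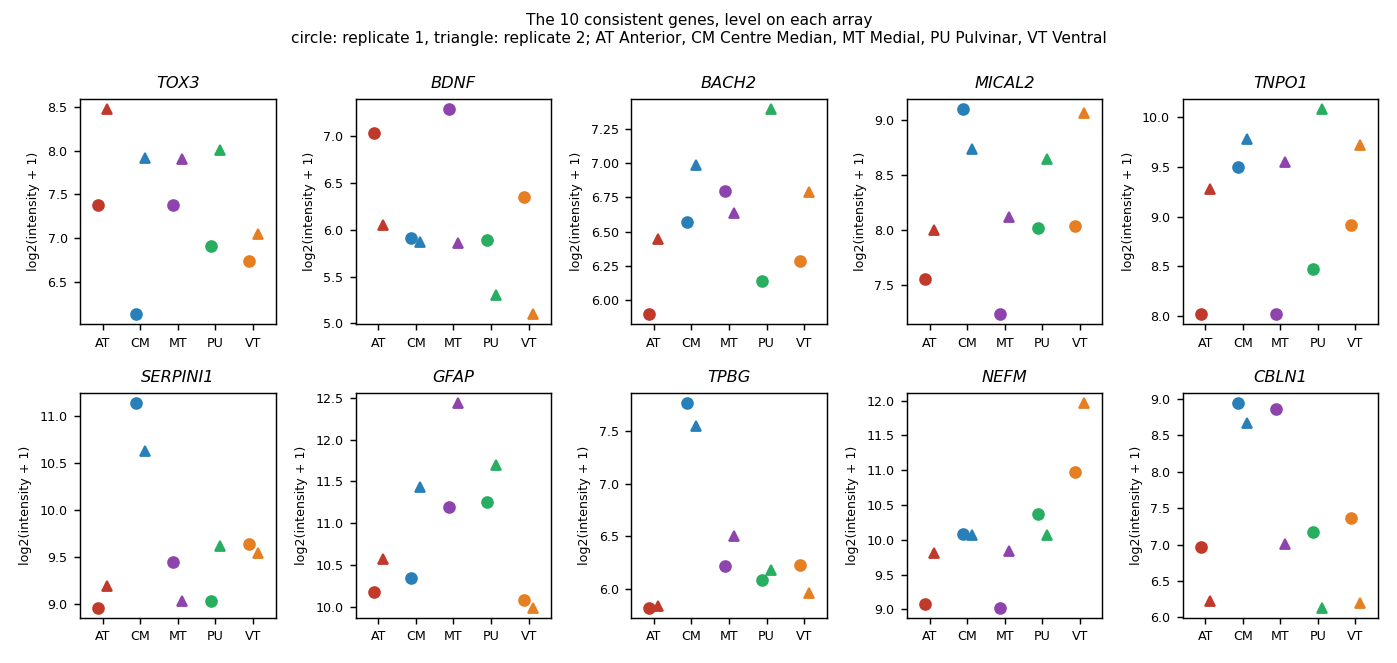
Level of each of the 10 consistent genes on every array (y axis, log2(intensity + 1)) by nucleus (x axis), with circles for replicate 1 and triangles for replicate 2. TOX3 is highest and TPBG and BACH2 are lowest in Anterior Thalamus in both sets, whereas TPBG, CBLN1 and SERPINI1 are also set apart by their high Centre Median arrays and NEFM by high Ventral Thalamus arrays.

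The opposed genes were AQP4, HEBP2, HNRNPH1, NCDN, SULF1 and TRHDE, named after their values were seen. AQP4, the water channel of astrocyte endfeet, differed by 0.52 in set 1 and -0.84 in set 2, and NCDN, neurochondrin, by -1.001 and 0.59. Of 9 other probe sets for 4 of the 10 consistent genes, 7 had the same sign of mean difference and 2 did not.

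Among the neuropeptides, NTS and TAC1 were higher than the mean of the other nuclei in both sets, by unequal amounts. NTS, the precursor of neurotensin, had levels of 11.39 and 11.02 in Anterior Thalamus, 9.87 and 9.67 in Centre Median, 10.98 and 10.36 in Medial Thalamus, 10.87 and 6.40 in Ventral Thalamus, and 9.71 and 8.98 in Pulvinar. Anterior Thalamus was highest in both sets, and Ventral Thalamus replicate 2 was far below all other arrays. The differences were 1.03 and 2.17, a ratio of 2.11 that put NTS just outside the rule, and the fitted difference was 1.60 (SE 0.575, limma adjusted p 0.807). Without Ventral Thalamus the NTS differences were 1.20 and 1.35. With only Ventral Thalamus replicate 1 left out, the fitted NTS difference was 2.10, and Ventral Thalamus then rested on its low replicate 2 alone.

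TAC1, the precursor of substance P, had levels of 6.53 and 5.22 in Anterior Thalamus, 4.61 and 4.74 in Centre Median, 4.65 and 5.76 in Medial Thalamus, 4.11 and 4.33 in Ventral Thalamus, and 4.23 and 4.25 in Pulvinar. Medial Thalamus was above Anterior Thalamus in set 2 and below it in set 1. The differences were 2.13 and 0.45. Without Anterior Thalamus replicate 2 the TAC1 difference rests on replicate 1 alone (2.13). TAC1 is also a marker of the medial habenula, which borders the thalamus, and another habenular marker, the nicotinic subunit CHRNA5, showed 1.03 and 0.09. Of the 12 measured habenula markers, 5 were above and 4 below the other nuclei in both sets, and the defining marker POU4F1 had levels of 5.59 and 5.74. POU4F1 differed by -0.21 and -0.34, but its set 2 mean was raised by Medial Thalamus replicate 2 at 7.36, and without Medial Thalamus the set 2 difference was 0.09. That array also had the highest TAC1 level of set 2. The part of habenular tissue in the TAC1 values was not tested.

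Other peptides gave smaller or unrepeated differences. CRH, corticotropin-releasing hormone, had levels of 10.80 and 10.68 in Anterior Thalamus, with differences of 0.25 and 0.45. Centre Median was low for CRH, at 9.61 and 9.71, and without it the differences were -0.06 and 0.28. CCK, cholecystokinin, had levels of 7.10 and 6.88, with differences of 0.49 and 0.15. SST, somatostatin, named after its values were seen, was 9.80 in Anterior Thalamus replicate 1 and 7.54 in replicate 2, so that its difference was 1.67 in set 1 and -0.08 in set 2. Of 47 neuropeptides and receptors, 15 were above and 12 below in both sets, with a median difference of 0.01. Their summed intensity was highest in Anterior Thalamus in both sets, at 11023 against 7858.5 to 10799 in set 1 and 8747.5 against 6075.9 to 7683.8 in set 2. Such a sum follows its brightest members, among them NTS, and does not describe the list as a whole.

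Of the calcium-binding proteins that divide thalamic nuclei, parvalbumin was low in Anterior Thalamus, as in Medial Thalamus, and the others were not set apart. PVALB had levels of 7.91 and 9.64 in Anterior Thalamus, 11.32 and 10.38 in Centre Median, 7.94 and 9.25 in Medial Thalamus, 10.07 and 11.80 in Ventral Thalamus, and 9.82 and 9.84 in Pulvinar. Anterior and Medial Thalamus were the low nuclei in both sets. The PVALB differences were -1.88 and -0.67, and the fitted difference was -1.27 (SE 0.387, limma adjusted p 0.807), or -0.76 with set 1 split. Without Ventral Thalamus the PVALB differences were -1.78 and -0.18, so little of the set 2 difference remained. CALB2, calretinin, had levels of 9.43 and 9.39 in Anterior Thalamus, below the 10.28 and 9.83 of Medial Thalamus and above the 8.15 and 8.14 of Ventral Thalamus. Its differences of 0.32 and 0.27 became 0.00 and -0.05 without Ventral Thalamus. CALB1, calbindin, showed 0.66 and 0.02, and the fitted difference changed sign to -0.19 with set 1 split.

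**Figure D4:**
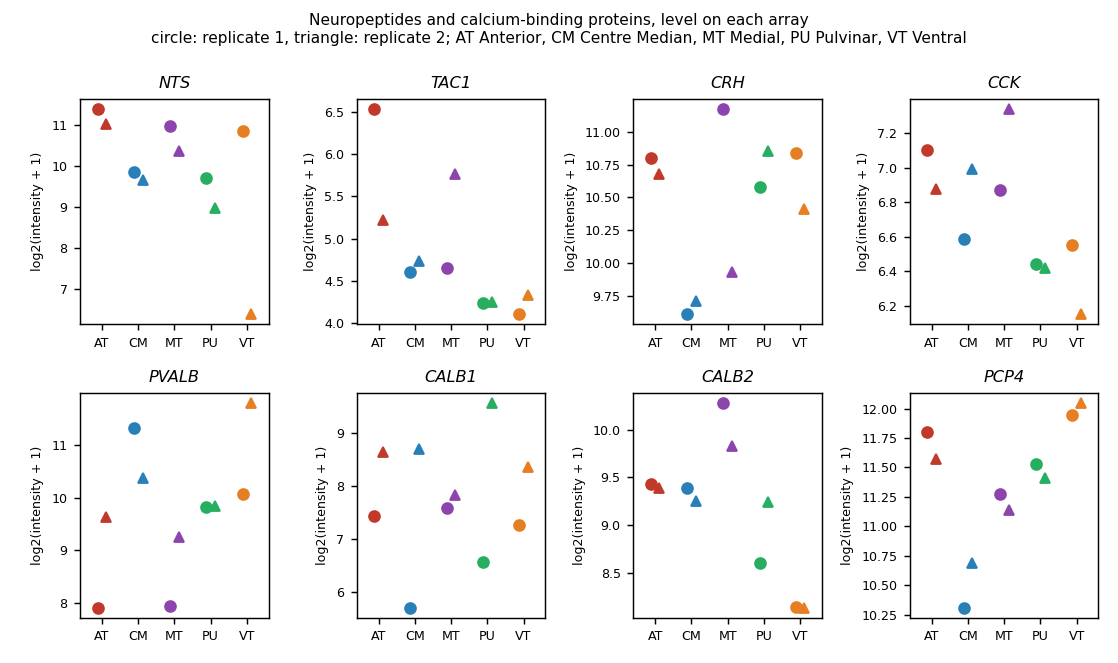
Level on every array (y axis, log2(intensity + 1)) of 4 neuropeptide precursors (upper panels) and 4 calcium-binding or calmodulin-binding proteins (lower panels) by nucleus (x axis), with circles for replicate 1 and triangles for replicate 2. NTS is highest in Anterior Thalamus in both sets, TAC1 is highest there in replicate 1 only, and PVALB is low in Anterior and Medial Thalamus.

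Genes that mark the first-order relay profile (neurofilaments, parvalbumin, fast channels and SNAREs) lay mostly below the mean that included Ventral Thalamus. Of 13 measured, 9 were below and 1 above the other nuclei in both sets, against 24.5% and 25.4% of all genes. The median difference was -0.26, against 0.00 over all genes, and 0 members were called. NEFH, the heavy neurofilament subunit, differed by -0.55 and -0.40, NEFL, the light subunit, by -0.49 and -0.30, and SCN1A, a sodium channel of fast-spiking neurons, by -0.88 and -0.27. The synaptobrevin gene VAMP1 differed by -0.31 and -0.38. Ventral Thalamus replicate 2 had the highest level of all arrays for NEFM, NEFH, NEFL, SCN1A, VAMP1 and PVALB. Without Ventral Thalamus 4 of the 13 were below and 3 above in both sets, with a median of -0.09. The differences then were -0.29 and 0.21 for NEFH, -0.36 and 0.08 for NEFL, -0.76 and 0.03 for SCN1A and -0.11 and 0.08 for VAMP1. With set 1 split the fitted difference of NEFH was -0.24 instead of -0.48, and that of VAMP1 was -0.14 instead of -0.34.

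The median of the genes linked to anterior or limbic thalamus lay slightly above the other nuclei. Of 10 measured, 5 were above and 0 below in both sets, and 5 differed in sign between the sets. The median was 0.10, with 0 calls. CALB1 and CALB2 were among those above. Without Ventral Thalamus their set 2 differences were -0.06 and -0.05. OPRM1, the mu opioid receptor, differed by 0.27 and 0.17, CHRM2, a muscarinic receptor, by 0.12 and 0.23, and LSAMP, an adhesion molecule of limbic regions, by 0.12 and 0.11. HTR7, a serotonin receptor, differed by -0.02 and 0.08. Anterior Thalamus was not outermost in both sets for any of these 4 genes. Among thalamic identity genes, 7 of 12 were above and 2 below in both sets, with a median of 0.14. The T-type calcium channel gene CACNA1G differed by 0.52 and 0.19, the transcription factor gene LHX2 by 0.32 and 0.19, and LEF1, a Wnt-responsive factor, by -0.45 and -0.52. Anterior Thalamus was highest in both sets for CACNA1G and LHX2. The midline and higher-order list, which includes NTS, CALB2 and CBLN1, had 7 of 11 above and 2 below (median 0.13).

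Receptor and channel lists gave small values. Of 14 GABA and glycine receptor subunits, 8 were above and 3 below in both sets (median 0.11). GABRA5, an alpha subunit of the GABA-A receptor, was highest in Anterior Thalamus in both sets, at 8.70 and 8.32, with differences of 0.61 and 0.27. The metabotropic subunit GABBR2 differed by 0.28 and 0.32. Of 39 acetylcholine and monoamine receptors, 17 were above and 5 below in both sets (median 0.05). HTR1D, a serotonin receptor, was the highest of the 5 nuclei in both sets, with differences of 0.23 and 0.25. Of 23 sodium and calcium channel genes, 12 were above and 2 below (median 0.04). Of 39 axon guidance genes, 12 were above and 12 below, with EPHA3, an ephrin receptor, at 0.59 and 0.36 and PLXNA2, a semaphorin receptor, at 0.22 and 0.42. Without Ventral Thalamus the EPHA3 differences were 0.60 and 0.03. The immediate early genes, 6 of 14 above and 1 below, included FOSB at 0.27 and 0.27.

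The medians of several lists of housekeeping and non-neuronal genes lay below the other nuclei in both sets. Of 43 cytosolic ribosomal protein genes, 32 were below and 1 above in both, with medians of -0.08 in set 1 and -0.16 in set 2. RPS25, a small-subunit protein, differed by -0.40 and -0.31. Of 54 respiratory chain and ATP synthase subunits, 26 were below and 4 above (median -0.10), and ATP5PF, a coupling factor of ATP synthase, differed by -0.53 and -0.26. Of 13 heat shock genes, 7 were below and 0 above (median -0.12), including the small chaperone gene CRYAB at -0.28 and -0.38. Summed intensities, which follow the brightest members, were inside the range of the other nuclei for ribosomal genes in set 1 (62497 against 57215 to 72800). In set 2 they were inside it for respiratory genes (47032 against 41347 to 58328) and heat shock genes (16345 against 15331 to 18085). In the other set each of these sums was the lowest. The astrocyte list had 8 of 18 below and 0 above (median -0.13), and its summed intensity was the lowest of the 5 nuclei in both sets, at 14129 against 16896 to 18175 and 23254 against 23550 to 28404. S100B, an astrocyte calcium-binding protein, differed by -0.24 and -0.66.

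The microglial list had 8 of 18 below and 2 above (median -0.10), with TYROBP, a microglial adaptor, at -0.49 and -0.28 and lowest in Anterior Thalamus in both sets. PTPRC, of the same list, went the other way, at 0.19 and 0.14 and highest in both sets. A dimmer probe set of PTPRC gave -0.17 and -0.29. The summed intensity of the microglial list was 2957.7 against 2967.2 to 3103.3 in set 1, a narrow gap. In set 2 it was 2806.3 against 2828.9 to 3665.8, again the lowest. Endothelial and pericyte genes had 9 of 17 below and 1 above (median -0.07), led by the smooth-muscle gene TAGLN at -0.38 and -0.62. Their summed intensity was the highest of the 5 nuclei in set 1, at 4489.6 against 3977.2 to 4485.5, and the lowest in set 2, at 3603.4 against 3679.9 to 4170.0. The myelin list had 7 of 18 below and 0 above (median -0.07), with medians of 0.01 and -0.11 in the separate sets. The medians of the ribosomal, respiratory, heat shock, astrocyte, microglial and endothelial lists stayed below 0 in all 23 settings tried, and the myelin median in 21 of 23. The part of these cell types in the differences of the other genes was not tested. TTR, the transthyretin of choroid plexus, and VIM, vimentin, showed -0.06 and -1.85 and -0.23 and -1.22, and the set 2 values go with a Medial Thalamus replicate 2 level of 12.19 for TTR and 9.02 for VIM.

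**Figure D5:**
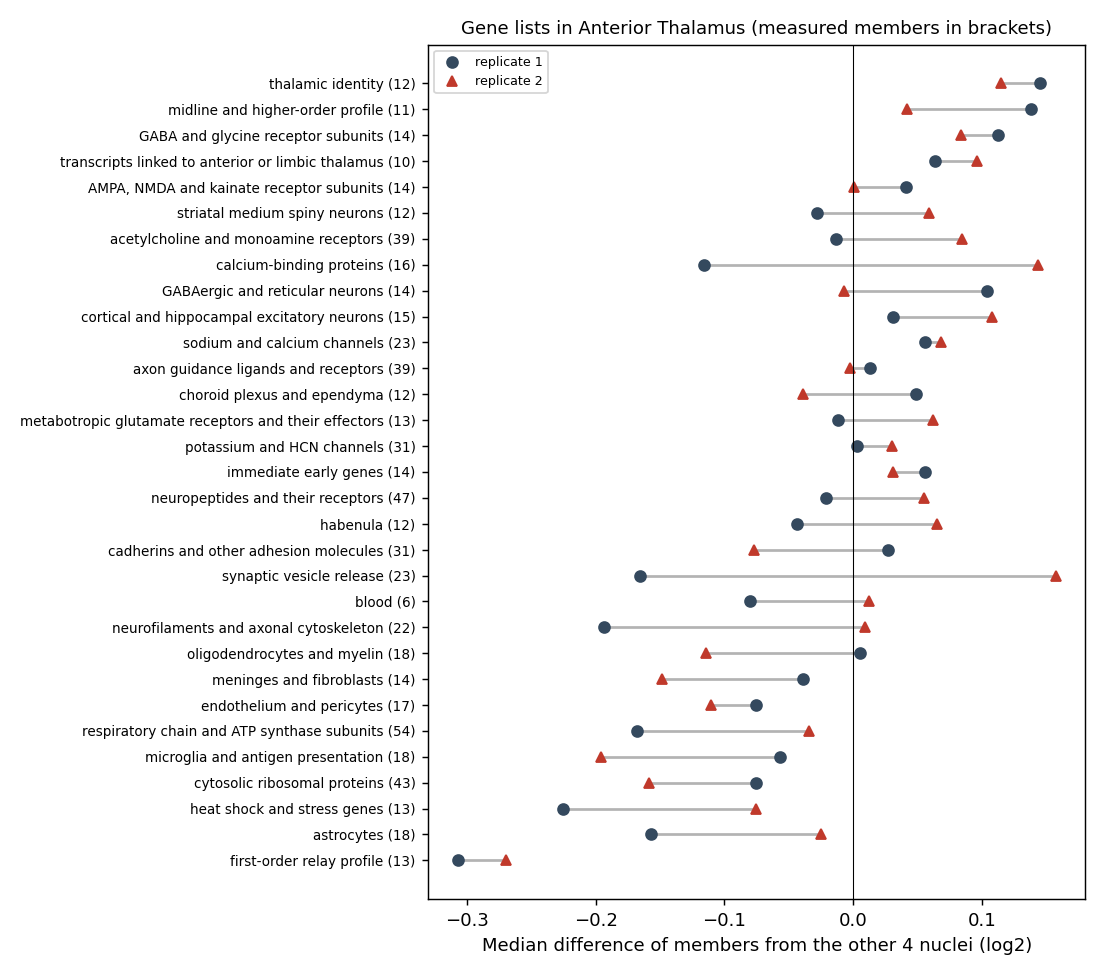
Median difference of Anterior Thalamus from the mean of the other 4 nuclei (x axis, log2) over the measured members of each of 31 gene lists (y axis), with circles for replicate 1 and triangles for replicate 2. The first-order relay list lies lowest at -0.31 and -0.27, and the thalamic identity list reaches 0.15 and 0.11.

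Set against single nuclei, Anterior Thalamus had more called genes against Centre Median than against any other nucleus. In limma with the replicate block, 9 genes were called against Centre Median (0.0752% of 11963), 2 against Ventral Thalamus (0.0167%), and 0 against Medial Thalamus and 0 against Pulvinar (0% each, with 610 and 572 genes at an unadjusted p below 0.05, against 796 for Centre Median and 1235 for Ventral Thalamus). Without the block the counts were 2, 0, 0 and 0, so the calls other than MC4R and TPBG depend on it. Higher in Anterior Thalamus than in Centre Median were NPTX2, a neuronal pentraxin that clusters AMPA receptors (1.32, SE 0.150, adjusted p 0.00285), and PCP4, a calmodulin regulator (1.19, adjusted p 0.0296). MC4R, the melanocortin receptor, was lower, with levels of 6.54 and 6.35 in Anterior Thalamus and 8.25 and 8.17 in Centre Median (-1.77, adjusted p 2.70e-05). TPBG (-1.83), CBLN1 (-2.21), SERPINI1 (-1.81), the GTPase gene DIRAS3 (-1.53), the LIM-domain gene LMO1 (-1.31) and CRYM, a thyroid hormone binding protein (-1.82), were also lower. Against Ventral Thalamus, NEFM (-2.02) and the kinase gene STK39 (-1.02) were lower, each at an adjusted p of 0.0244. Quantile normalisation with the block left 0 calls against Ventral Thalamus, and both genes then had an adjusted p of 0.0987. With the set 1 split there were 8 calls against Centre Median, all among the 9 (PCP4 had an adjusted p of 0.188), and 15 against Ventral Thalamus, with NEFM and STK39 among them. The split gave 1 call against Pulvinar and 0 against Medial Thalamus (646 genes at an unadjusted p below 0.05). NPTX2, DIRAS3, LMO1, CRYM and STK39 were named after their values were seen.

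By the root mean square difference over all genes, Pulvinar was the nucleus closest to Anterior Thalamus in both sets, at 0.238 and 0.208. The value was 0.256 and 0.210 for Centre Median, 0.253 and 0.214 for Medial Thalamus, and 0.259 and 0.243 for Ventral Thalamus. Pulvinar and Centre Median lay near each other in set 2, and this order was not tested.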

How the data were processed

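The deposited values are array intensities on a linear scale that the authors made with RMA, per the submitters' processing notes (version not stated). RMA corrects background, normalises arrays together and summarises each probe set, and whether both sets were normalised together is not given in the sources used here. Probes match human transcripts, and weak signal was not taken to mean that a transcript is missing. The genome build and detection calls are not given in the sources used here. Depth does not apply to arrays, and their number limits the precision.

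Of 22283 probe sets, 68 were controls; 20114 had an annotation entry, 1043 of them for several genes. The 19065 probe sets with 1 gene symbol gave 11963 genes, each represented by its probe set with the highest mean. Values were taken as log2(intensity + 1), with no filter. limma 3.58.1 in R 4.3.3 was fitted to all 10 arrays with 1 coefficient per nucleus, the replicate number as a block, a variance trend and Benjamini-Hochberg adjustment (two-sided, 0.05). The block was used because the comparison was made within each replicate number. Nuclei also moved together between replicate 1 and 2 (correlations of 0.758 to 0.831 between nuclei). The fit was tested on simulated data. Figures were drawn with matplotlib 3.10.9 in Python 3.11.15.

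Genes were named if called against the mean of the other nuclei. Also named were genes both consistent and outermost in both sets (up to 15 per direction). In each list, up to 4 members with the largest smaller difference were named, as were 8 genes of thalamic interest. Others are marked as named after their values were seen. The members, lists and rule were chosen with earlier results of these data known. Alternatives covered the block, normalisation, pseudocount, filter, probe set choice, variance trend, actin signal, the set 1 split, each reference nucleus and each array. The set 1 split was applied to the counts of consistent and outermost genes and to the single-nucleus tests after the data had been seen.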

Additional observations from a re-analysis of the deposited data

How the results depend on the processing

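The count of 0 called genes held with and without the replicate block and under the other settings that kept all arrays, with smallest limma adjusted p from 0.0563 to 1.00; leaving out 1 array gave 0 to 3 (3 without Anterior Thalamus replicate 2: TAC1, CHRNA5, MTA1; 2 without Medial Thalamus replicate 1: TPBG, TTR; 1 without Ventral Thalamus replicate 1: NTS). The 10 consistent genes became 22 without Medial Thalamus, 15 without Pulvinar, 15 without Ventral Thalamus and 7 without Centre Median, with 8, 5, 8 and 3 of the 10 among them, and 79 at a limit of 0.3, and 6 (without Centre Median replicate 1) to 17 (without Medial Thalamus replicate 2) when 1 array was left out. The 3 outermost genes became 5 with quantile normalisation, 1 with a mean intensity of at least 100, 1 without Centre Median, 15 without Medial Thalamus, 6 without Pulvinar, 7 without Ventral Thalamus and 38 at 0.3, and 1 (without Centre Median replicate 2) to 10 (without Medial Thalamus replicate 1) when 1 array was left out; there were 7 without Medial Thalamus replicate 2, 6 without Pulvinar replicate 1 and 5 without either Ventral Thalamus replicate. Without the replicate block the 9 calls against Centre Median became 2 and the 2 against Ventral Thalamus 0, which quantile normalisation also made 0. With the set 1 split, chosen for these counts after seeing the data, there were 7 consistent genes (4 of the 10), 3 outermost, and 8 calls against Centre Median, 15 against Ventral Thalamus, 1 against Pulvinar and 0 against Medial Thalamus. Of 3478 comparisons for 153 named genes, 14 changed sign: ANK3 to 0.0125 (mean of probe sets) and 0.0782 (without Ventral Thalamus), CALB2 to -0.0243 and S100A9 to -0.0015 (without Ventral Thalamus), CALB1 to -0.19 (set 1 split), DUSP1 to -0.0054, GRM3 to 0.0695, HBD to 0.0022, MC4R to 0.0106 and NPY to 0.0487 (without Centre Median), GAD1 to -0.13 and PLXNC1 to 0.0173 (without Medial Thalamus), PDYN to 0.0092 (without Pulvinar) and HTR7 to -0.0249 (without Anterior Thalamus replicate 2, and 0.0848 without replicate 1). The 10 consistent genes kept their sign in all 227 comparisons. They had been chosen for the same sign and size in both sets, so this follows largely from the rule. The cause of these changes was not tested. With 2 arrays a nucleus and 4 residual degrees of freedom, small differences cannot be separated from the spread. A fit without 1 array leaves its nucleus with 1 array, which adds nothing to the residual spread. Calls that appear only in such a fit therefore carry no weight.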

Other observations

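At the lower size limit of 0.3, Anterior Thalamus was the outermost nucleus in both sets for 16 genes higher and 22 genes lower. Except RIMS1, the genes in this paragraph were named after their values were seen, and 0 of them were called by limma against the mean of the other 4 nuclei. Of these 38 genes, 12 had 19 other probe sets, of which 15 had the same sign of mean difference and 4 the opposite sign. CSRP2, a LIM-domain protein, had levels of 8.90 and 8.99 in Anterior Thalamus and at most 8.80 and 8.68 elsewhere, and its other probe set gave differences of 0.73 and 0.67. MYRIP, an adaptor of myosin and Rab proteins, differed by 0.41 and 0.44. NPTX2 differed by 0.72 and 0.42, but by 0.44 and 0.21 without Centre Median. Its levels were 9.04 and 8.33 in Anterior Thalamus, close to the 8.93 and 8.26 of Ventral Thalamus. RIMS1, a protein of the presynaptic active zone, differed by 0.67 and 0.39, and CAMK2N1, an inhibitor of calmodulin kinase II, by 0.40 and 0.40. SERPINA7, the thyroxine-binding globulin, was at 5.63 and 5.35 against at most 5.25 and 5.13 in the other nuclei. Among the lower genes, TPPP3 differed by -0.45 and -0.66, PDE2A, a phosphodiesterase, by -0.42 and -0.42 and HLA-B by -0.39 and -0.34. The PDE2A differences were -0.17 and -0.46 without Centre Median, and -0.53 and -0.25 without Medial Thalamus. With set 1 split the fitted HLA-B difference was -0.21 instead of -0.36. TGFBR2, a TGF-beta receptor, differed by -0.33 and -0.66, but its other probe set gave 0.29 and -0.01. The transcription factor YY1 differed by -0.34 and -0.34, while its 3 other, dimmer probe sets gave 0.05 to 0.06 in set 1 and -0.29 to 0.23 in set 2.

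GBX2, a homeobox factor of thalamic development, was 5.23 in Anterior Thalamus replicate 1 and 6.45 in replicate 2, where it was the highest array, and Medial Thalamus replicate 1 had 6.36 (differences -0.28 and 1.17). MTA1, a chromatin protein, was 5.08 in Anterior Thalamus replicate 1 and 6.39 to 7.10 on the other 9 arrays (differences -1.55 and -0.18). GBX2 and MTA1 were named after their values were seen.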
